A study of Homo sapiens with 4 samples.

Results

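The nuclear genes of oxidative phosphorylation were described complex by complex in MDA-MB-231 breast cancer cells with and without suppression of ELK3. A gene was taken by its symbol, that is, a symbol starting with NDUFA, NDUFB, NDUFC, NDUFS, NDUFV, UQCR, COX4I, COX5, COX6, COX7, COX8 or ATP5, or the names SDHA, SDHB, SDHC, SDHD and CYC1, with assembly factors starting NDUFAF and pseudogenes left out. A probe set, the group of array probes read as 1 value, had to name a single gene. This gave 192 probe sets of 44988 that name a single gene, and 84 genes of 18132. Complex I had 36 genes, complex II had 3, complex III had 9, complex IV had 17 and complex V had 18, and the inhibitor gene ATP5IF1 was counted apart. SDHB, UQCRFS1, NDUFA4 and NDUFA4L2 were not analysed here.

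Oxidative phosphorylation is the work of the inner mitochondrial membrane. Complexes I and II pass electrons from NADH and succinate to ubiquinone, complex III hands them to cytochrome c and complex IV to oxygen, while complexes I, III and IV pump protons that drive complex V, the ATP synthase. Most subunits are encoded in the nucleus and a few, among them the proton channels of complex I and the catalytic core of complex IV, in mitochondrial DNA, so both genomes have to supply parts. The study also measured oxygen consumption and acidification of the medium in these cells, and the question asked here is how the messages of the machinery itself stood in the same pair of groups.

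Gene expression was measured on 4 arrays of total RNA, 2 of control and 2 of ELK3 knockdown (ELK3 KD) cells. MDA-MB-231 is a human triple-negative breast cancer line, and ELK3 is a transcription factor of the ETS family. Both groups were stable lines made with a retrovirus and selected with puromycin, carrying either a control shRNA or an shRNA against ELK3, and according to the methods both started from MDA-MB-231 cells with GFP and luciferase. The KD line had been chosen for its suppressed ELK3. The arrays of a group are numbered as biological repeats, called replicate 1 and replicate 2 here. The sources do not tell whether a repeat was another line, another culture or another extract, and the p-values hold for the spread of these arrays alone.

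Values were log2 intensities after RMA (correction for background, quantile normalization of the arrays and 1 summary value a probe set), so a difference of 1 is a doubling. Each gene was read from its brightest probe set, and called higher or lower where limma gave an adjusted p under 0.05 (Benjamini-Hochberg over all 18132 genes). Permuting 2 arrays against 2 (exact, two-sided) gives no p below 0.33, so the calls rest on the variance that limma pools across genes. The number of arrays limits the precision. As a guide to background, the 95th percentile of 359 probe sets for olfactory receptors was 5.71, and a reading below it is called near background here. Where 2 pairs of values are set against each other, the first pair is control replicates 1 and 2 and the second is ELK3 KD replicates 1 and 2.

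ELK3, the targeted gene, went from 10.85 and 10.82 in control to 8.34 and 8.33 in ELK3 KD arrays, a log2 difference of -2.50 (limma adjusted p = 3.57e-05) in the direction that the labels give. Differences between the groups were widespread: limma called 49.5% of all genes, 26.0% higher and 23.5% lower in ELK3 KD cells. The groups of arrays did not overlap for 76.2% of genes. All 8 markers of MDA-MB-231 cells that were read were lower in ELK3 KD arrays, with VIM still at 12.49 and 12.49 and AXL near background at 4.38 and 4.08. HEK293 cells serve to package retroviruses, and of 8 of their markers 6 were higher and 0 lower, while PAX2 and NEFM were near background in both groups. The summary level of the MDA-MB-231 list (the median gene) fell from 11.49 and 11.58 to 8.25 and 8.26, and that of the HEK293 list went from 4.69 and 4.34 to 8.82 and 8.76. Of 3 genes of chromosome band 9p21, a region deleted from the genome of MDA-MB-231, 2 were higher and 1 lower. CDKN2A read 5.10 and 4.61 in control but 11.33 and 11.43 in ELK3 KD arrays, CDKN2B 2.86 and 3.19 against 6.81 and 7.13, and MTAP 6.78 and 6.84 against 6.25 and 6.48 (log2 difference -0.45). Of 8 markers of luminal breast cells, 3 were higher and 1 lower (37.5% and 12.5%), with FOXA1 at a log2 difference of 4.10 and EPCAM at -5.055. The MDA-MB-231 list holds VIM, which the paper counts as mesenchymal, and the paper proposes that suppressing ELK3 makes these cells epithelial. By the MDA-MB-231 and HEK293 lists, CDKN2A and CDKN2B, the arrays labelled ELK3 shRNA went against the cell line they are labelled with. MTAP went the other way. The names ELK3 KD and ELK3 shRNA below stand for the label. In these arrays the loss of ELK3 and any other difference of the 2 lines cannot be told apart, and how far the latter enters the results below was not tested. In bulk RNA, fewer cells of a type and less RNA per cell cannot be told apart either.

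Of the 84 genes, 34 rose (40.5%, against 26.0% of all genes), 11 fell (13.1%, against 23.5%) and 39 did not pass the test. The median difference was 0.18 on the log2 scale, against -0.05 over all genes tested. These genes were bright, with 69 of 84 at a mean above 10, and brightness moves with the share called: among the 1594 genes of all kinds with a mean above 10, a limit set after seeing the values, 30.5% were called higher and 32.1% lower. Of the 69 bright members, 31 were higher and 10 lower. The groups of arrays lay apart with ELK3 KD higher for 48 members and with ELK3 KD lower for 23, where they lay apart in these directions for 35.4% and 40.8% of all genes. Changes were small. Only 3 members (NDUFB10, NDUFA3 and NDUFB9, all of complex I) moved by more than 2-fold, which is 3.57% of members against 16.5% of all genes and 11.9% of genes with a mean above 10.

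**Figure D1:**
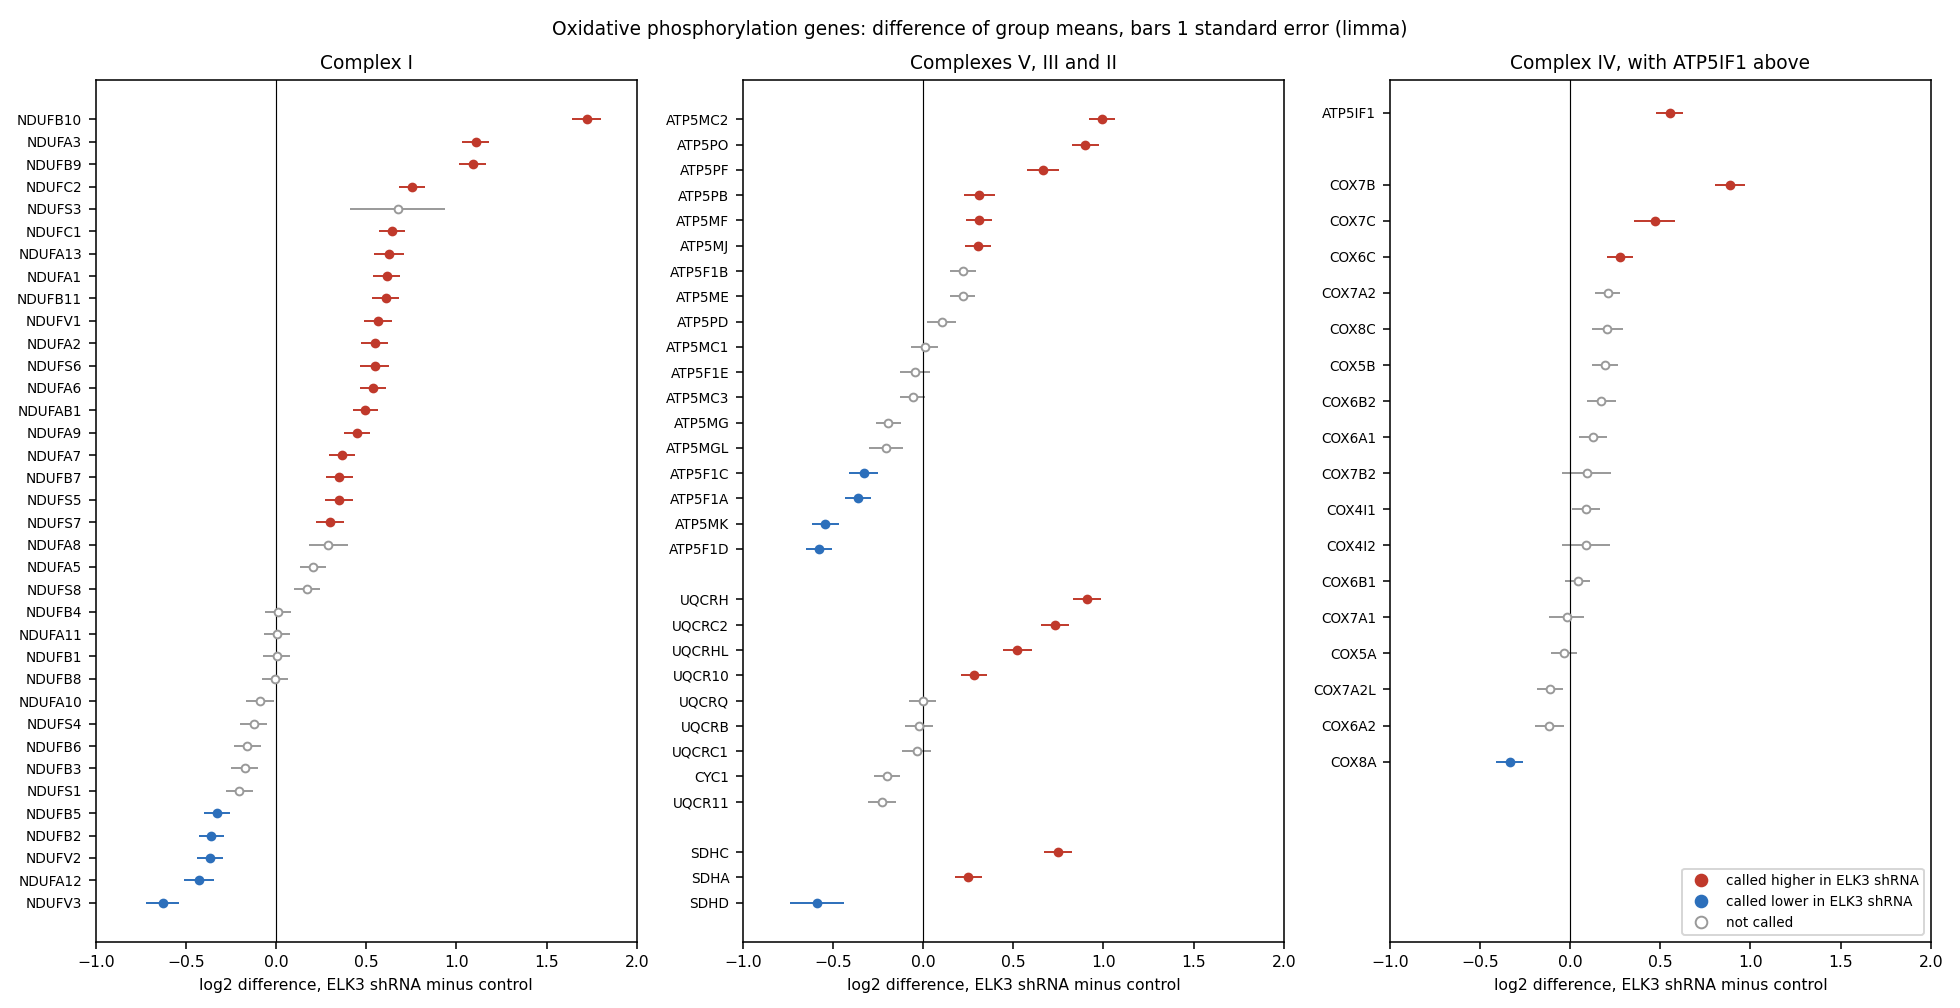
Log2 difference (ELK3 shRNA minus control) of the 84 genes, with bars of 1 standard error from limma and each complex sorted by size. Filled red points were called higher (34), filled blue points lower (11) and open points not called (39), and the rises of complex I reach 1.72 whereas no fall goes beyond -0.63.

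The complexes differed in their counts, where 26.0% of all genes were called higher and 23.5% lower. Complex I had 18 genes higher and 5 lower of 36 (median difference 0.32), complex II had 2 higher and 1 lower of 3 (0.25), complex III had 4 higher and 0 lower of 9 (-0.00), complex IV had 3 higher and 1 lower of 17 (0.09) and complex V had 6 higher and 4 lower of 18 (0.06). Whether the complexes differ from each other was not tested, since their genes are not replicates. The plot of differences by complex shows the same spread: complexes I, III, IV and V hold genes near 0, and complexes I, II, IV and V hold called genes on both sides of it.

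**Figure D2:**
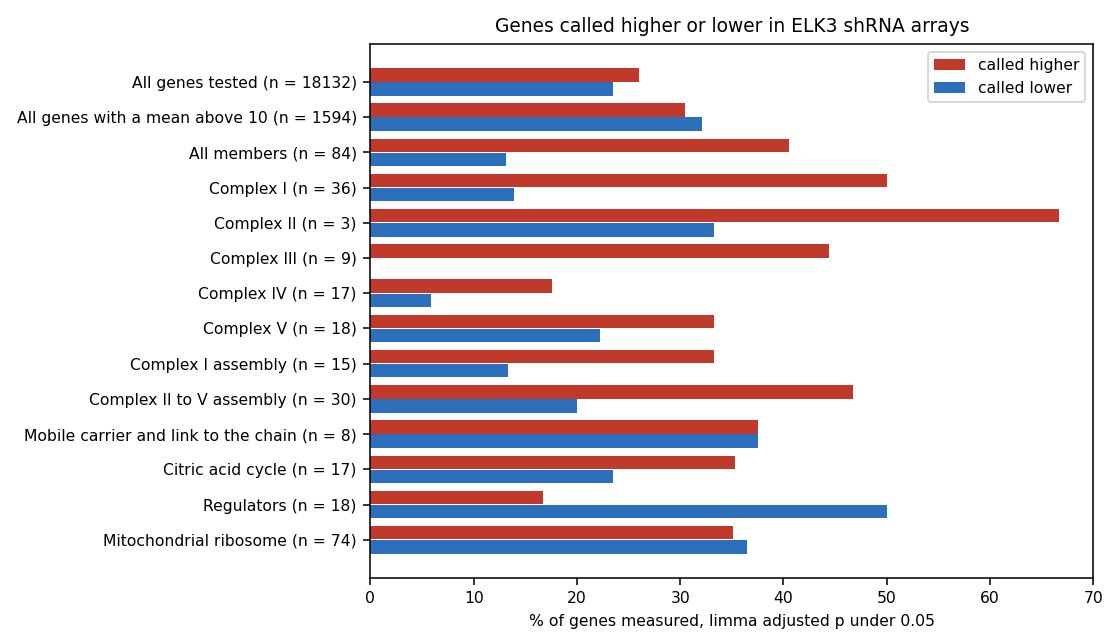
Percent of genes called higher (red) and lower (blue) in ELK3 shRNA arrays at a limma adjusted p under 0.05, for all genes, bright genes, the members, each complex and the other mitochondrial lists, with the number measured after each name. Complex I stands at 50.0% higher and 13.9% lower and the regulators at 16.7% higher and 50.0% lower, beside 26.0% and 23.5% of all genes.

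In complex I, the NADH dehydrogenase, genes of the core and accessory subunits were called in both directions. Accessory subunits surround the catalytic core and are needed to build and hold the enzyme. Of 30 of them, 16 rose, 4 fell and 10 did not pass, whereas of the 6 core subunits analysed here 2 rose, 1 fell and 3 did not pass. Whether the shares differ was not tested. By symbol, 8 of 13 NDUFA genes rose and 1 fell, 4 of 11 NDUFB genes rose and 2 fell, both NDUFC genes rose, 3 of 7 NDUFS genes rose and 0 fell, and of 3 NDUFV genes 1 rose and 2 fell.

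NDUFB10, an accessory subunit of the membrane arm, showed the largest change of all members. It read 9.89 and 9.78 in control arrays and 11.56 and 11.54 in ELK3 KD arrays (log2 difference 1.72, standard error 0.08, adjusted p = 0.000114 from limma), a 3.30-fold rise with each ELK3 KD array far above both controls. NDUFA3, another accessory subunit, went from 10.78 and 10.72 to 11.88 and 11.83 (difference 1.11). Of its 4 probe sets 3 were called, at 1.08 to 1.11, and the other read 6.86, 6.78, 6.85 and 6.85. NDUFB9, an accessory subunit of the LYR protein family, went from 10.61 and 10.62 to 11.67 and 11.75 (1.09), with 3 of 4 probe sets called at 1.09 to 1.32 and the other near background. NDUFC2, a subunit of the membrane arm, went from 11.37 and 11.36 to 12.09 and 12.15 (0.75), and all 3 of its probe sets were called higher. These genes were picked among those whose groups did not overlap, and for each the gap was many times the distance between replicates.

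Subunits of the module that oxidises NADH moved in opposite directions. NDUFV1, the flavin-carrying subunit where NADH is oxidised, rose from 9.83 and 9.74 to 10.39 and 10.32 (difference 0.57, adjusted p = 0.00348 from limma). Its partner NDUFV2, an iron-sulfur protein, fell from 11.14 and 11.19 to 10.79 and 10.81 (-0.37), and the accessory subunit NDUFV3 fell from 10.20 and 10.03 to 9.46 and 9.51 (-0.63), the largest fall among the members. NDUFV3 was called lower at 2 of its 3 probe sets, and the other read 7.89 and 8.13 against 7.95 and 7.85 (-0.11) and was not called. NDUFS1, the large iron-sulfur protein of the same module, read 9.27 and 9.27 against 9.10 and 9.03 (-0.20, adjusted p = 0.0755 from limma) and was not called, although 1 of its 5 probe sets was called lower at -0.50. NDUFS7, which holds the last iron-sulfur cluster before ubiquinone, rose from 10.12 and 10.03 to 10.41 and 10.34 (0.30), with all 4 probe sets called higher, 1 of them near background in both groups.

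The other falls of complex I were small. NDUFA12 (-0.43), NDUFB2 (-0.36) and NDUFB5 (-0.33), all accessory subunits, fell with no overlap between the groups. NDUFS3, a core subunit, had a difference of 0.67 but was not called (adjusted p = 0.0919 from limma). Its control arrays read 9.84 and 10.64 and its ELK3 KD arrays 10.90 and 10.93, so the control arrays stood further apart from each other than control replicate 2 stood from ELK3 KD. Control replicate 1 was also the lower one at the other probe set of NDUFS3 (4.33 against 5.26), but that probe set was near background in both groups. Without control replicate 1 the difference was 0.27 and without control replicate 2 it was 1.07 and called (adjusted p = 0.00491 from limma). NDUFA8 was likewise called only without control replicate 2, at 0.42 against 0.29 with all arrays.

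With each array left out in turn, 13 of the 18 rises and 1 of the 5 falls of complex I were called in all 4 fits. The rises that were lost in some fits were those of NDUFA7, NDUFA9, NDUFB7, NDUFS5 and NDUFS7, with differences of 0.30 to 0.45, and the falls lost were those of NDUFA12, NDUFB2, NDUFB5 and NDUFV2. Each was lost without ELK3 KD replicate 1 and without ELK3 KD replicate 2, where 36.1% of complex I genes were called higher and 2.78% lower beside 17.0% and 13.4% of all genes in the former fit, and NDUFS7 also without control replicate 2.

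**Figure D3:**
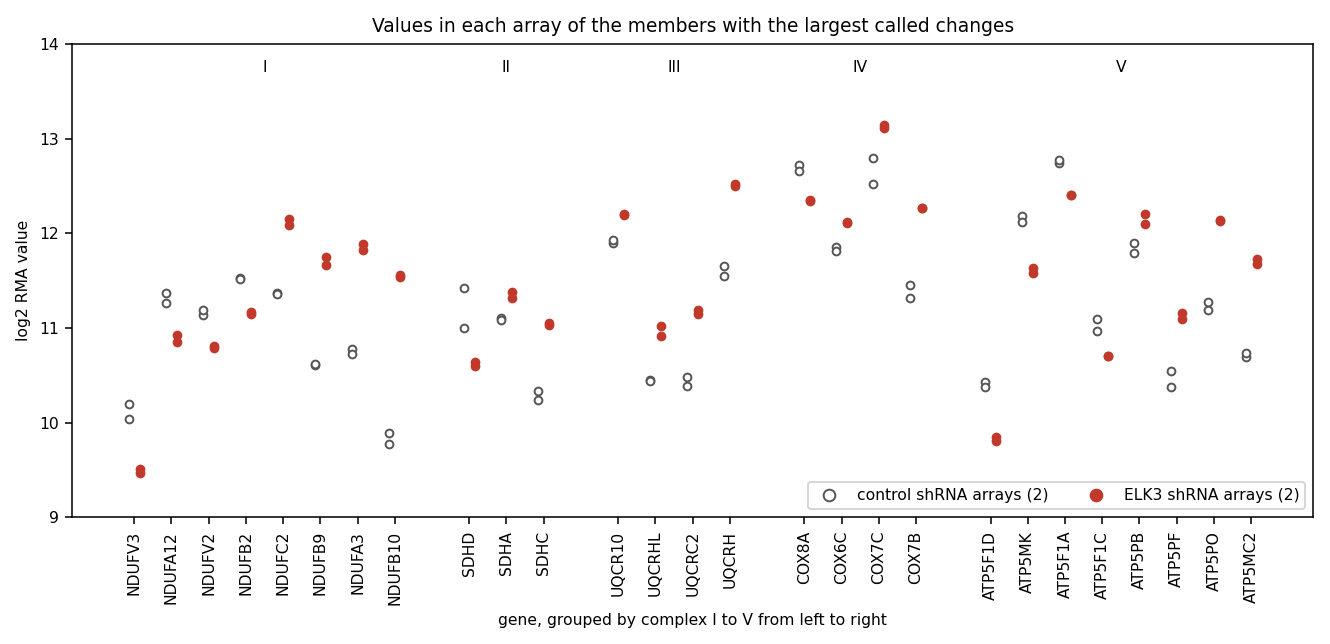
Log2 RMA value in each of the 4 arrays (open circles for control shRNA, filled circles for ELK3 shRNA) of up to 4 largest called rises and 4 largest called falls per complex, from complex I at the left to complex V at the right. Only called genes whose groups do not overlap were drawn, so the gaps follow from that choice. The control arrays of SDHD and COX7C stand visibly apart from each other.

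Complex II, succinate dehydrogenase, links the citric acid cycle to the chain, and its membrane anchors moved in opposite directions. SDHC, one of the anchors that hold the enzyme in the membrane, rose from 10.34 and 10.24 to 11.05 and 11.03 (log2 difference 0.75, adjusted p = 0.00121 from limma), and each of its 5 probe sets was called higher, at 0.45 to 0.82. SDHD, the other anchor, fell from 11.00 and 11.42 to 10.60 and 10.64 (-0.59, adjusted p = 0.0263 from limma). Each of its 5 probe sets was called lower, at -0.79 to -0.48, of which 2 hold identical values. All 5 are of a kind that may bind other transcripts, and SDHD had no probe set of another kind to check them against. The control arrays of SDHD differed by 0.41 from each other, control replicate 2 being the higher, and the lower of them still lay above both ELK3 KD arrays. Without control replicate 2 the fall was -0.38, and its call was lost with ELK3 KD replicate 1 or 2 left out.

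SDHA, the flavoprotein that oxidises succinate, read 11.10 and 11.09 against 11.38 and 11.31 (0.25, adjusted p = 0.0415 from limma). This call was lost in each of the 4 fits that left out an array. SDHA has near-identical pseudogene copies, so its value is uncertain. The probe set read for it is of a kind that may bind other transcripts, and its only probe set of another kind was near background at 4.01, 3.93, 3.93 and 3.85.

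Complex III, cytochrome c reductase, had 4 genes higher and 0 lower of 9. UQCRH, the hinge protein at cytochrome c1, rose from 11.66 and 11.55 to 12.52 and 12.50 (log2 difference 0.91, adjusted p = 0.000698 from limma), with both probe sets called. UQCRC2, a core protein of the complex, rose from 10.39 and 10.49 to 11.19 and 11.15 (0.73), also at both of its probe sets. Its partner UQCRC1 read 11.23 and 11.13 against 11.18 and 11.10, and the groups overlapped. UQCRHL, a near copy of UQCRH, had a difference of 0.52 on a probe set that may bind both messages, and is uncertain for that reason. UQCR10, a small subunit, rose from 11.89 and 11.93 to 12.21 and 12.19 (0.28).

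CYC1, cytochrome c1 itself, read 11.48 and 11.53 against 11.31 and 11.30 (-0.20, adjusted p = 0.0744 from limma), and was not called at any of its 3 probe sets. For 2 small subunits the probe sets did not go together. UQCR11 was -0.23 and not called at its brightest probe set, but rose at the other from 7.67 and 7.63 to 8.33 and 8.36 (0.70). UQCRQ was -0.00 at its brightest, whereas 1 of its 3 probe sets was called higher at 0.79. When all probe sets of a gene were averaged, complex III had 6 genes higher and 1 lower with a median of 0.28, against -0.00 from the brightest alone. Of the 4 rises, that of UQCR10 was lost without control replicate 1 (0.26) and with ELK3 KD replicate 1 or 2 left out, and the other 3 were called in all 4 fits.

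Complex IV, cytochrome c oxidase, changed in the smallest share of its genes, 3 higher and 1 lower of 17. COX7B, a small membrane subunit, rose from 11.45 and 11.32 to 12.27 and 12.27 (log2 difference 0.89, adjusted p = 0.000914 from limma), with both probe sets called and in all 4 fits that left out an array. COX7C, another small subunit, rose from 12.80 and 12.52 to 13.14 and 13.11 (0.47). Its control arrays differed by 0.28, and the 40 genes measured around it on the chromosome differed between the same control arrays by a median of 0.35 in the same direction. COX6C rose from 11.85 and 11.81 to 12.11 and 12.12 (0.28), and COX8A fell from 12.72 and 12.65 to 12.34 and 12.35 (-0.34). The calls of COX7C, COX6C and COX8A were lost with ELK3 KD replicate 1 or 2 left out, and that of COX6C also without control replicate 2 (0.26).

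COX4I1, COX5A and COX5B, which lie around the catalytic core, did not pass the test. COX4I1, to which ATP binds as a regulator, read 11.43 and 11.35 against 11.46 and 11.51 (0.09), COX5A read 12.08 and 12.01 against 12.02 and 12.00 (-0.04), and COX5B read 11.00 and 11.01 against 11.21 and 11.19 (0.19, adjusted p = 0.0776 from limma). The ELK3 KD arrays lay above the controls for COX5B and COX4I1 and overlapped them for COX5A. COX6A1, COX6B1, COX7A2 and COX7A2L had differences of 0.13, 0.04, 0.21 and -0.11 and were not called.

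Several subunits of complex IV exist as isoforms restricted to a tissue or condition, such as COX4I2 of lung, COX6A2 and COX7A1 of muscle and heart, and COX6B2, COX7B2 and COX8C of testis. Of these 6 none was called in either direction. COX4I2, COX7A1, COX7B2 and COX8C were near background in both groups. COX6A2 read 6.37 and 6.26 against 6.24 and 6.16, and COX6B2 read 6.25 and 6.28 against 6.50 and 6.37. No change of isoform from a common to a restricted one was detectable at the level these probe sets can read. Without the 6 isoforms, complex IV had 3 higher and 1 lower of 11.

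In complex V the calls differed between parts of the ATP synthase, each of few genes. The F1 head with its central stalk, which carries out catalysis, had 0 of 5 genes higher and 3 lower (median difference -0.33), whereas the peripheral stalk, which holds the head against the membrane, had 3 of 4 higher and 0 lower (0.49). Over all genes 26.0% were called higher and 23.5% lower. This grouping by part was made with earlier results of these data known, and no test was made of it, so whether the parts differ was not tested. ATP5F1A, the alpha subunit of the head, fell from 12.75 and 12.78 to 12.40 and 12.40 (-0.36, adjusted p = 0.0111 from limma), with all 4 probe sets called at -0.40 to -0.35. ATP5F1C, the gamma subunit that turns in the head, fell from 10.97 and 11.10 to 10.71 and 10.70 (-0.33), and ATP5F1D, the delta subunit of the stalk, from 10.43 and 10.38 to 9.81 and 9.84 (-0.58), each at all 3 of its probe sets. The beta subunit ATP5F1B, which bears the catalytic sites, read 12.50 and 12.53 against 12.71 and 12.76 (0.22, adjusted p = 0.0558 from limma) and was not called at this probe set, whereas its other probe set was, at 0.26. ATP5F1E read 12.41 and 12.32 against 12.38 and 12.27.

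Of the peripheral stalk, ATP5PO, the oligomycin sensitivity protein at the tip of the head, rose from 11.19 and 11.28 to 12.14 and 12.13 (log2 difference 0.90, adjusted p = 0.000657 from limma) at all 3 of its probe sets. ATP5PF, coupling factor 6 of the stalk, rose from 10.54 and 10.38 to 11.10 and 11.16 (0.67). ATP5PB, the b subunit, had a difference of 0.31 (adjusted p = 0.0341 from limma), from 11.79 and 11.90 to 12.21 and 12.10. It was called at 1 of 4 probe sets, lost its call in each fit that left out an array, and gave -0.27 on the 1 probe set not marked as binding other transcripts, which was near background. ATP5PD, the d subunit, was 0.10 and not called.

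The c ring, which turns as protons pass, is encoded by 3 genes with the same mature protein. ATP5MC2 rose from 10.69 and 10.73 to 11.68 and 11.73 (log2 difference 0.99, adjusted p = 0.000434 from limma). ATP5MC1 (10.51 and 10.58 against 10.52 and 10.58) and ATP5MC3 (12.35 and 12.36 against 12.28 and 12.31) were not called, so 1 gene of the 3 moved. Of the other membrane subunits, ATP5MF (0.31) rose at 4 of its 5 probe sets. ATP5MJ (0.30) was called higher at only 1 of its 7 probe sets, which ran from -0.07 to 0.30. ATP5MK, which is linked to the pairing of ATP synthases, fell from 12.18 and 12.12 to 11.58 and 11.63 (-0.54). All 3 probe sets of ATP5MK were called lower, 1 of them near background in both groups. ATP5MGL was near background in both groups. ATP5IF1, which blocks ATP hydrolysis by the synthase, rose from 11.73 and 11.68 to 12.23 and 12.29 (0.55, adjusted p = 0.00301 from limma), with 2 of 4 probe sets called.

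Of the 6 rises of complex V, 3 were called in all 4 fits that left out an array (ATP5MC2, ATP5PO and ATP5PF), and of the 4 falls 2 (ATP5F1D and ATP5MK). ATP5F1A, ATP5F1C, ATP5MF and ATP5MJ lost their calls with ELK3 KD replicate 1 or 2 left out, ATP5F1C also without control replicate 2 (-0.27) and ATP5MF also without control replicate 1 (0.29). The rise of ATP5IF1 was called in all 4.

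Counted singly, 67 of the 192 probe sets were called higher (34.9%, against 24.6% of all probe sets), 32 lower (16.7%, against 24.3%) and 93 neither, and 26 were near background in both groups. Of 51 members with several probe sets, 0 had probe sets called in opposite directions. There were 10 called genes with at least 1 probe set that was not called, and 8 genes that were not called although another of their probe sets was (ATP5F1B, ATP5MG, COX7A2, NDUFB3, NDUFB6, NDUFS1, UQCR11 and UQCRQ).

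Position on the chromosome moved with the differences. For each member the median difference of up to 40 neighbours was taken, 20 measured genes on either side. Across the 84 members it ran with the member's own difference at Pearson r = 0.45 and Spearman rho = 0.47, and across 18111 genes at r = 0.23 and rho = 0.30. These are descriptions across genes, which share neighbours and arrays and are not independent. NDUFB10 rose by 1.72 beside neighbours at 0.48, UQCRH by 0.91 beside 0.39 and NDUFC1 by 0.64 beside 0.40. NDUFA6 (0.54 beside 0.51), NDUFS5 (0.35 beside 0.47) and COX7C (0.47 beside 0.42) moved about as far as their neighbours. NDUFA3 and NDUFB9 rose by 1.11 and 1.09 where the neighbours stood at -0.01 and -0.19, and NDUFV3 fell by 0.63 beside -0.05. The part that position or chromosome dosage has in these differences was not tested.

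**Figure D4:**
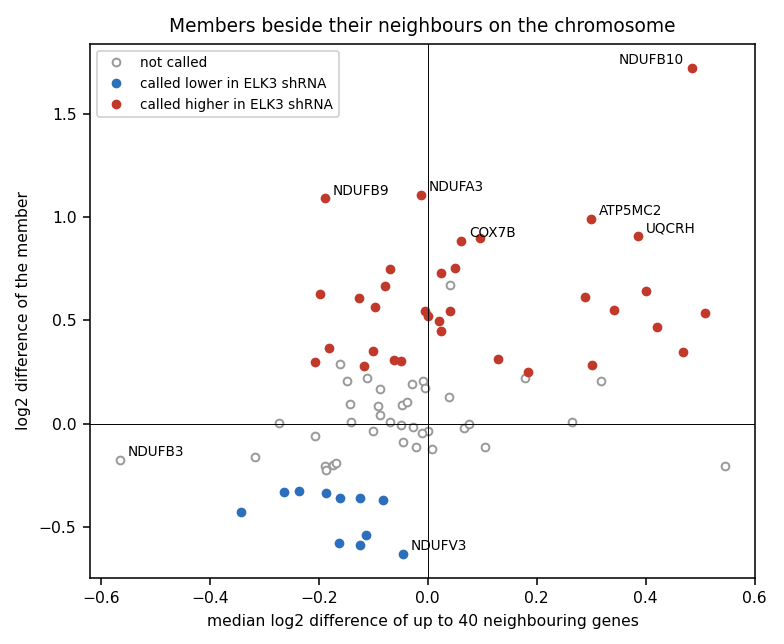
Log2 difference of each member (vertical axis) against the median log2 difference of up to 40 neighbouring genes (horizontal axis), coloured by call. All 11 falls lie left of 0 on the horizontal axis, and the rises lie on both sides, from NDUFS7 at -0.21 to NDUFA6 at 0.51. Most members that were not called also lie left of 0, and the median difference over all genes was -0.05.

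Promoters of these genes are known for sites of NRF1, of YY1 and of ETS proteins such as GABPA, and ELK3 itself is an ETS protein. RefSeq promoters (GRCh38.p14, from 250 bases before to 50 bases after a gene start) were at hand for 68 of the 84 members and for 14425 of all genes, and 9 members had several. They were searched on both strands for CCGGAAG (ETS), GCGCATGCG (NRF1) and AAGATGGC (YY1). The first and the last of these can share 3 letters, which occurred in 0 members. Windows are shown as examples for members that rose and for members that fell. The match (or its reverse complement) is in capitals, 5′ to 3′ on the strand of the gene and ending before the gene start. The NRF1 windows shown are of rises, but ATP5F1C and SDHD, which fell, also hold the NRF1 letters.
UQCRH, rose, ETS, chr1:46303630-46303680, plus strand: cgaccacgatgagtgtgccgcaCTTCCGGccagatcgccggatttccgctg
NDUFA1, rose, ETS, chrX:119871763-119871813, plus strand: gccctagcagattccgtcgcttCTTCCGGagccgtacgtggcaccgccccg
SDHD, fell, ETS, chr11:112086774-112086824, plus strand: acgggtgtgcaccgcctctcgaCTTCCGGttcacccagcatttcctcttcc
ATP5F1A, fell, ETS, chr18:46098316-46098366, minus strand: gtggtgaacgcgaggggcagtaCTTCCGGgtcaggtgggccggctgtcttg
ATP5MK, fell, ETS, chr10:103396607-103396657, minus strand: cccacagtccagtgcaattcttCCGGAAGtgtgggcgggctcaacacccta
NDUFS6, rose, NRF1, chr5:1801339-1801391, plus strand: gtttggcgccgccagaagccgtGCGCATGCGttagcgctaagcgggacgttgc
ATP5MC2, rose, NRF1, chr12:53676094-53676146, minus strand: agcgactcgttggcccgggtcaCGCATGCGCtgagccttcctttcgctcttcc
ATP5PF, rose, YY1, chr21:25735082-25735133, minus strand: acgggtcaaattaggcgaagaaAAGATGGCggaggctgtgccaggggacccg

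The ETS letters stood in 20 of 68 member promoters (29.4%), against 16.9% of all promoters and 29.2% of those of genes with a mean above 10. The NRF1 letters stood in 11 (16.2%, against 3.24% of all and 5.50% of bright genes) and the YY1 letters in 11 (16.2%, against 4.83% and 9.40%). Of the 20 members with the ETS letters, 5 rose (ATP5PF, NDUFA1, NDUFA13, NDUFB7 and UQCRH) and 4 fell (ATP5F1A, ATP5MK, COX8A and SDHD), with a median difference of 0.10, against 22 and 5 of the 48 without them and a median of 0.21. Of the 11 with the YY1 letters, 8 rose (ATP5PB, ATP5PF, ATP5PO, NDUFA3, NDUFA6, NDUFA7, NDUFA9 and NDUFS7) and 0 fell, with a median of 0.37, against 19 and 9 of the 57 without them and a median of 0.13. Of the 11 with the NRF1 letters 4 rose and 2 fell. Among all genes with a promoter, 2438 held the ETS letters, of which 774 were called higher and 662 lower. For the YY1 letters these counts were 697, 237 and 192, and for the NRF1 letters 467, 149 and 136. Of the 11 members with the YY1 letters, 7 belong to complex I, where 50.0% of genes were called higher. A match is a run of letters, not a site shown to be bound, and no test was made of these counts.

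Genes that build and serve the complexes were called in both directions, as were all genes (26.0% higher and 23.5% lower). Of 15 assembly factors of complex I, 5 rose and 2 fell (33.3% and 13.3%). NUBPL, which brings iron-sulfur clusters to complex I, rose 4.03-fold, TIMMDC1 rose 1.63-fold and ECSIT fell by 0.88 on the log2 scale. Of 30 assembly factors of complexes II to V, 14 rose and 6 fell, among them rises of ATPAF1 for the F1 head (2.80-fold), LYRM7 for complex III (2.12-fold) and SDHAF1 for complex II (1.96-fold). Of 8 measured carriers and enzymes that feed the chain, 3 rose and 3 fell (37.5% each). ETFDH (3.79-fold) and ETFB (3.73-fold), which bring electrons from fatty acid oxidation, rose, and SQOR, which oxidises sulfide, fell by 1.83 on the log2 scale.

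Of 18 measured regulators of mitochondrial genes 3 rose and 9 fell (16.7% and 50.0%, against 26.0% and 23.5% of all genes), with a median difference of -0.23. GABPA, an ETS protein named above for promoters of this kind, rose from 7.80 and 7.89 to 8.83 and 8.87 (2.01-fold). Its binding was not measured here. PPARGC1A, a coactivator of mitochondrial biogenesis, rose from 5.47 and 5.35 to 6.72 and 6.56, with its control arrays near background, so background limits the size of its difference. NRF1 and PPARGC1B were not called. Among those that fell, TFB2M, a transcription factor of mitochondrial DNA, had a log2 difference of -1.28, POLG, the polymerase that copies it, of -1.18 and TFAM, which packages it, of -0.38. The control arrays of TFAM read 9.92 and 10.20 and its ELK3 KD arrays 9.64 and 9.71, and its call was lost without control replicate 2 (-0.24) and with ELK3 KD replicate 1 or 2 left out. ESRRA, a nuclear receptor of energy metabolism, fell by 0.43, a call also lost with ELK3 KD replicate 1 or 2 left out. Genes encoded in mitochondrial DNA were not analysed here, so these values cover the nuclear share of the chain only.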

How the data were processed

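Values deposited by the authors were log2 intensities of 49395 probe sets on 4 arrays, which the submitters' processing notes credit to RMA in Affymetrix Expression Console without a version. An Illumina BeadChip is named in the paper's methods, but the probe sets carry Affymetrix names, and this was not settled. RMA includes quantile normalization, which hides any change of total RNA content, and it compresses low values, so differences of dim genes can be understated. Of the probe sets, 1832 named several genes, 2473 none and 102 were controls. Symbols were brought up to date through gene identifiers in RefSeq (GRCh38.p14, 44961 of 44988 matched), and each gene was read from its brightest probe set.

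ELK3 shRNA was set against control shRNA in limma 3.58.1 (R 4.3.3; functions lmFit and eBayes, without a block) over 18132 genes, or over 44988 probe sets, with Benjamini-Hochberg adjustment at 0.05. The fit was tested on simulated data. Python 3.11.15 with matplotlib 3.10.9 drew the figures. Members and lists were chosen with earlier results of these data known, and lists are described by counts and medians, with no test of a list. Genes named were ELK3, per complex the 4 largest called rises and falls with no overlap, the catalytic subunits, isoforms, ATP5IF1, up to 3 called genes of each other list with the largest change, and 6 regulators. Other members, and markers, were named after their values were seen. Alternatives were another reading of probe sets, filter, normalization, variance prior, test or threshold, a replicate block, and each array left out in turn.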

Additional observations from a re-analysis of the deposited data

Results flagged for a closer look

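There were 8 probe sets that name a member together with another gene and took part in no comparison. Of these, 5 read higher in both ELK3 KD arrays than in both control arrays, which is what singled them out, 2 read lower in both and 1 overlapped. The probe set of NDUFS3 and PTPMT1 had a log2 difference of 0.35, with control replicate 1 at 8.96 below the other 3 arrays (9.58 to 9.65). Control replicate 1 was also lowest at the probe sets of NDUFS3 alone, of which 1 was near background. Those of SDHA with its pseudogene SDHAP3 and of SDHA with SDHAP1 and SDHAP2 had differences of 0.40 and 0.39, beside 0.25 at the probe set read for SDHA. That of ATP5MF and its readthrough ATP5MF-PTCD1 had 0.28, beside 0.31 for ATP5MF. A probe set naming GCSH, NDUFS1 and related sequences had 0.59, whereas NDUFS1 alone was -0.20. Of the other 3, those of COX7A2 with TMEM30A had -0.71 and -0.01, beside 0.21 for COX7A2 alone, and that of ATP5F1E with related sequences, near background, had -0.15.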

How the results depend on the processing

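The counts of members, 34 higher and 11 lower, moved by more than 1.5 times under several settings, the count lower under more of them than the count higher. Genes called higher were 21 with a difference of at least 0.5 required. Genes called lower were 17 with a trended and robust prior, 3 at an adjusted p under 0.01 and 4 with a difference of at least 0.5. With an array left out, genes called higher ran from 22 to 32 and lower from 3 to 11, and probe sets from 41 to 54 higher and from 7 to 24 lower, against 67 and 32 with all arrays. The lowest counts came without ELK3 KD replicate 1 or 2 (22 and 3 genes in each), where a lone array is assumed to vary like the other group and the shares of all genes called were 17.0% higher and 13.4% lower, and 17.5% and 13.7%. Of the 34 rises 22 were called in all 4 such fits, and of the 11 falls 3.

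Same-numbered arrays did not deviate together (r = 0.01 over 18132 genes), so the numbers do not pair the arrays. With the replicate number as a block, 30 members were higher and 11 lower, and 52 probe sets higher and 27 lower. By the methods' t-test after Benjamini-Hochberg, 31 were higher and 8 lower.

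Median differences moved by more than the spread between replicates as follows. With the mean of all probe sets they were 0.28, 0.16, 0.28, 0.069 and 0.0020 for complexes I to V, and with probe sets that may bind other transcripts left out 0.30, -0.083, 0.19, 0.041 and -0.012. With arrays centred on their median, which moved the median of all genes from -0.05 to -0.09, they were 0.28, 0.21, -0.046, 0.050 and 0.012. After a second quantile normalization they were 0.36, 0.029, 0.12 and 0.094 for complexes I, III, IV and V. With only genes above the median level, complex IV gave 0.13 and complex V 0.10. With an array left out, complex I ran from 0.31 to 0.33, complex III from -0.0037 to 0.032, complex IV from 0.063 to 0.19 and complex V from 0.044 to 0.081. Medians of complexes II, III and V thus changed sign with the probe sets read or the scaling. Complexes I and IV stayed above 0 in each of these.

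Of the single genes, 21 comparisons changed sign. Those with the mean of probe sets were ATP5PB (-0.0042) and COX4I1 (-0.045). Those with probe sets of possible cross-binding left out were ATP5PB (-0.27), COX4I1 (-0.28), COX6B2 (-0.085) and SDHA (-0.083), where the probe set left for ATP5PB and SDHA was near background. With arrays centred, ATP5MC1 (-0.035) and COX6B1 (-0.0020) changed sign, and after the second quantile normalization UQCRC1 (0.0004). With an array left out, ATP5MC1 ran from -0.025 to 0.041, COX4I2 from -0.051 to 0.23, COX7A1 from -0.11 to 0.068, COX7B2 from -0.061 to 0.25, UQCRC1 from -0.082 to 0.011 and NRF1 from -0.13 to 0.064. Except for ATP5PB and SDHA, none of these was called. Of the other comparisons of single genes 756 kept their direction and side of the threshold, 68 lost a call and 22 gained one. The cause of these shifts was not tested.

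Counting NDUFA4 with complex I could not be run, as that gene was not analysed here. With 4 arrays, small differences are out of reach: members with a difference under about 0.25 were not called. Fold changes of dim members can be understated.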

Other observations

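The mitochondrial ribosome makes the subunits that mitochondrial DNA encodes. Of 74 of its protein genes measured, 26 were called higher in ELK3 KD cells and 27 lower (35.1% and 36.5%, against 26.0% and 23.5% of all genes), with a median log2 difference of -0.04. MRPS21 rose from 9.60 and 9.41 to 11.43 and 11.54 (3.96-fold), whereas MRPS10 fell from 10.38 and 10.36 to 8.92 and 8.96 and MRPL57 from 10.92 and 10.89 to 9.70 and 9.72. The neighbours of MRPS10 on the chromosome stood at -0.47, those of MRPS21 at 0.08 and those of MRPL57 at -0.05.

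Of 17 measured genes of the citric acid cycle and pyruvate oxidation, 6 were higher and 4 lower (median 0.12). These are 35.3% and 23.5%, against 26.0% and 23.5% of all genes. CS, citrate synthase, rose from 9.60 and 9.59 to 10.53 and 10.51 (1.90-fold, with neighbours at 0.29), but its difference was 0.17 and not called with probe sets that may bind other transcripts left out. IDH2, an isocitrate dehydrogenase that yields NADPH, rose from 8.03 and 7.44 to 8.98 and 8.80, its control arrays standing 0.58 apart, and its call was lost with ELK3 KD replicate 1 or 2 left out. SUCLG2, a subunit of succinyl-CoA ligase, fell from 9.12 and 8.83 to 8.31 and 8.16 (-0.74), and was -0.35 and not called with such probe sets left out. Its call was also lost without ELK3 KD replicate 2.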
